A study of Mus musculus with 24 samples.

Results

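A set of 9 genes encoding amino acid transporters that liver expresses, or their subunits, were followed in mouse liver: Slc1a4, Slc3a1, Slc3a2, Slc7a2, Slc7a11, Slc38a2, Slc38a3, Slc38a4 and Slc43a1. They were chosen by name, with earlier results of these data known, as 9 of the 55536 entries in the deposited expression table. All libraries came from whole liver of wild type Balb/c mice aged 6 weeks, 8 each from healthy controls (Con), mice with acute pancreatitis (AP) and mice with severe acute pancreatitis (SAP). How pancreatitis was induced, and how long before the liver was taken, is not stated in the labels. The labels also do not say that each library is a different mouse, so the p-values measure the spread between libraries. The comparisons of AP and of SAP with Con share the same control libraries. Values are TPM (transcripts per fixed total), which are scaled by transcript length and so can be set side by side between genes.

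Hepatocytes take up amino acids from portal blood for protein synthesis, urea formation, gluconeogenesis and glutathione synthesis. The sodium-coupled carriers of the Slc38 family bring in glutamine, alanine and other neutral amino acids. System A carriers (Slc38a2, Slc38a4) accept small neutral amino acids, and the system N carrier Slc38a3 moves glutamine, histidine and asparagine in exchange for protons and can run in either direction. Slc7a2 carries the cationic amino acids arginine, lysine and ornithine. Several Slc7 proteins reach the cell surface as light chains bound to a heavy chain, either Slc3a2 (4F2hc, CD98) or Slc3a1 (rBAT). Slc7a11 is the cystine-glutamate exchanger, Slc1a4 an exchanger of alanine, serine and cysteine, and Slc43a1 a facilitator of branched-chain amino acids and phenylalanine. Slc38a2, Slc3a2 and Slc7a11 are among the genes known to be induced by ATF4, the transcription factor of the amino acid starvation response.

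In SAP liver Slc38a3, the most abundant of the 9 transcripts in Con, fell 4.71-fold, while Slc38a2, Slc3a2 and Slc7a2 rose 5.51-, 3.02- and 2.57-fold. Folds are on the scale of log2(TPM + 1), from limma fitted to all genes averaging 1 TPM or more and with Benjamini-Hochberg adjusted p under 0.05 as the threshold. Slc1a4 and Slc7a11 lay below that mean, which left 7 of the 9 members tested in that fit. Against Con, 5 of the 7 rose in SAP, 1 fell and 1 did not pass, where 74.0% of all tested genes were called (44.2% higher, 29.8% lower). In 4 of the 7 the SAP and Con libraries did not overlap (3 higher, 1 lower), against 37.8% of all tested genes (23.2% higher, 14.6% lower). Against AP, 4 rose in SAP, 2 fell and 1 did not pass, where 72.1% of all tested genes were called (41.0% higher, 31.0% lower). The same 4 members again showed no overlap, against 37.3% of all tested genes (22.0% higher, 15.2% lower). Between AP and Con limma called 0 of 7 members, with 1 member at an unadjusted p under 0.05, where 5.48% of all tested genes were called (4.35% higher, 1.13% lower). In no member did the AP and Con libraries lie apart, as they did in 0.748% of all tested genes (0.644% higher, 0.104% lower). The members' median log2 differences were 0.45 for SAP against Con, 0.74 for SAP against AP and -0.12 for AP against Con, beside 0.21, 0.13 and 0.06 over all tested genes.

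**Figure D1:**
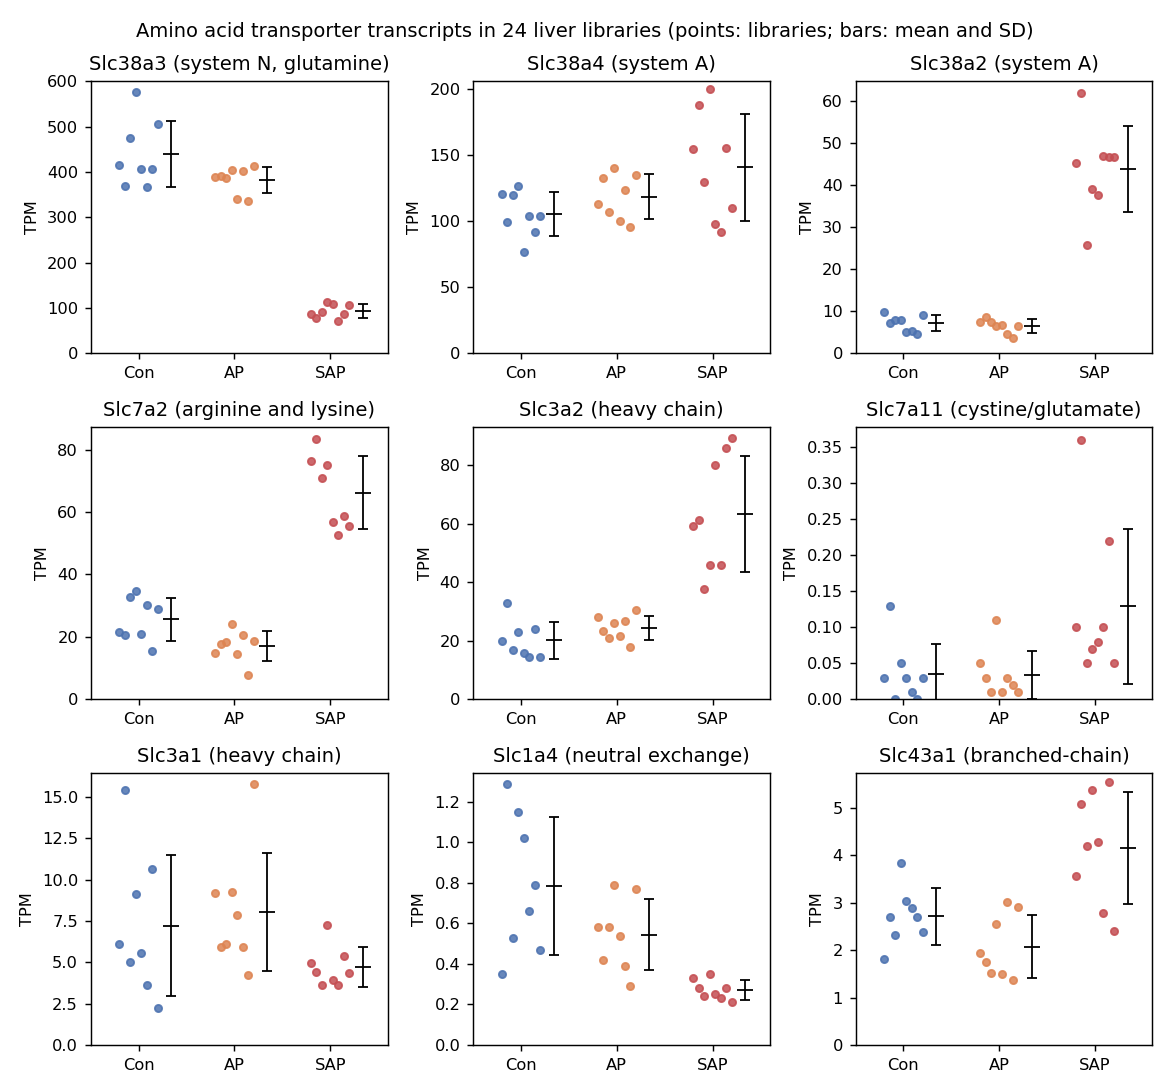
TPM of each of the 9 members in the 24 libraries, 1 panel per gene with its own axis in TPM, points for libraries, and horizontal marks and bars for the mean and SD of 8 libraries (bars stop at 0). SAP points lie below all others for Slc38a3 and above all others for Slc38a2, Slc3a2 and Slc7a2.

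Promoter sequences are shown for Slc7a11, Slc1a4, Slc38a2 and Slc3a2, because Slc7a11, Slc38a2 and Slc3a2 are known ATF4-responsive genes that were higher in SAP, while Slc1a4 was lower. Each runs from 250 bases before to 50 bases after the start of the gene, from RefSeq on GRCm38.p6, where 7 of the 9 members matched an entry. Slc7a11 is at chr3:50443564-50443863, Slc1a4 at chr11:20332664-20332963, Slc38a2 at chr15:96699679-96699978 and Slc3a2 at chr19:8713848-8714147, all on the minus strand. They are printed 5′ to 3′ in the direction of the gene. Capitals mark matches, on either strand, to 4 sequence patterns that were searched. These were the C/EBP-ATF response element TGATGNAA, the C/EBP site TTGCNNAA, the antioxidant response element TGACNNNGC and the STAT site TTCNNNGAA, and marked matches do not overlap.
Slc7a11: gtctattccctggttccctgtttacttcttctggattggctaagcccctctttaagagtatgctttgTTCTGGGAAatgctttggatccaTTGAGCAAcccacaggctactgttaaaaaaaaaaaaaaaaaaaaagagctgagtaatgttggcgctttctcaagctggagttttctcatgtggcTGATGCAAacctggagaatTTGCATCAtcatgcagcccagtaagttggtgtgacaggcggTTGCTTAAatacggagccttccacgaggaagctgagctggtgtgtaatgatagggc
Slc1a4: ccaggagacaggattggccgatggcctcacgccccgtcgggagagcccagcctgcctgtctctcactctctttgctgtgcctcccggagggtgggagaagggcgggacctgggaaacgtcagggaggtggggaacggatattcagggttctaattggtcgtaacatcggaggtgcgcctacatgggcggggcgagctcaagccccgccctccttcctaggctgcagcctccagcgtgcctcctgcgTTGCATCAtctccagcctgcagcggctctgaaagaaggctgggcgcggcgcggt
Slc38a2: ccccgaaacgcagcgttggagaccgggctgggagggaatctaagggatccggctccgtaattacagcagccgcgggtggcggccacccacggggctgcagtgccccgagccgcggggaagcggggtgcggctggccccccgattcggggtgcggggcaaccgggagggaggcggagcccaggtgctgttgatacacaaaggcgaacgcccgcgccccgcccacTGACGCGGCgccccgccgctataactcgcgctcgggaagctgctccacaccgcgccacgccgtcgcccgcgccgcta
Slc3a2: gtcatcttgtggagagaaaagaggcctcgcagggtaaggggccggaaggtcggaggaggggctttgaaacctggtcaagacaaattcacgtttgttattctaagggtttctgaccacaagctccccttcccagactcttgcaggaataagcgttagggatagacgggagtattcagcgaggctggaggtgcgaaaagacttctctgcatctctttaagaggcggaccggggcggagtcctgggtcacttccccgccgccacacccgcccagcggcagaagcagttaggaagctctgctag

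The Slc7a11 window holds 2 C/EBP-ATF response elements on opposite strands, TGATGCAA from position -66 to -59 and TTGCATCA from -47 to -40, where position 0 is the gene's start. It also holds 2 C/EBP sites and 1 STAT site. The Slc1a4 window holds 1 C/EBP-ATF response element, TTGCATCA, which spans the start. In the Slc38a2 window 1 antioxidant response element was found, TGACGCGGC from -27 to -19, and the Slc3a2 window held none of the 4 patterns. Of 32851 promoter windows of the same length, 3.97% hold the C/EBP-ATF response element, 10.8% the C/EBP site, 12.4% the antioxidant response element and 8.30% the STAT site. Among the other members, 1 C/EBP site lay in the Slc3a1 window and 1 antioxidant response element in the Slc43a1 window, and the 3 Slc38a4 windows held none of the patterns. A match describes the letters only. Sequence outside these windows was not searched, so a window without a match does not show that the gene lacks the pattern. Of the genes with the C/EBP-ATF element in their windows, Slc7a11 was higher in SAP and Slc1a4 lower. Both lay below the filter, at the values given below. Whether the element acts in these livers was not tested.

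Libraries were alike in total (986423 to 993642 TPM) and in the number of entries above 0 (17140 to 18565), but not in composition. Mitochondrial transcripts took 12.5% to 22.2% of TPM in Con, 7.81% to 13.7% in AP and 2.80% to 6.26% in SAP, with means of 17.1%, 10.9% and 4.46%. Serum amyloid A transcripts, of the acute-phase response, took 0.327% ± 0.411, 0.731% ± 0.366 and 9.52% ± 1.98 (SD, n = 8 each), with Con 3 and Con 9 the highest of the controls. TPM has a fixed sum, so each gene's value depends on these shares. The summed level of the 6 hepatocyte markers, led by Apoa1 and Alb, ranged from 41907 to 52721 TPM in Con, from 42491 to 57674 in AP and from 38724 to 51813 in SAP. In SAP against Con 1 of the 6 was higher, 2 were lower and 3 did not pass, where 44.2% of all tested genes were higher and 29.8% lower. Ttr had means of 5826 TPM in Con and 2808 in SAP, and Cps1 of 825 and 337. These defining markers of the labelled tissue were abundant in all 24 libraries.

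Slc38a3 was the most abundant member in Con, at 366 to 575 TPM with a median of 411, and in AP at 337 to 412 TPM with a median of 390. In SAP it ranged from 71.1 to 114 TPM with a median of 89.4. All 8 SAP libraries lay below every Con and every AP library. The log2 difference was -2.23 ± 0.11 (SE, 95% interval -2.46 to -2.01) for SAP against Con and -2.05 for SAP against AP, with limma adjusted p of 3.52e-15 and 2.10e-14. AP against Con gave -0.19 (95% interval -0.41 to 0.04, adjusted p = 0.348). That AP difference passed under quantile normalization, at -0.39 (adjusted p = 0.0361). In bulk liver, fewer cells of a type and less RNA per cell cannot be told apart.

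Slc38a2, the system A carrier known for its induction by amino acid starvation, went the other way. It ranged from 4.71 to 9.83 TPM in Con (median 7.50), from 3.59 to 8.71 in AP (median 6.67) and from 25.9 to 61.8 in SAP (median 46.0). Every SAP library exceeded every other library. The log2 difference was 2.46 ± 0.17 (SE) against Con and 2.58 ± 0.17 against AP, with adjusted p of 3.04e-12 and 1.38e-12. AP against Con gave -0.12 (95% interval -0.47 to 0.23, adjusted p = 0.760).

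Slc38a4, the other system A carrier and largely a liver gene, was higher in SAP by a smaller amount that depended on the scaling. Con ranged from 76.9 to 127 TPM with a median of 104. AP ranged from 95.4 to 141 TPM with a median of 118, and SAP from 92.2 to 200 with a median of 142. The groups overlapped, with 5 of 8 SAP libraries above every Con library. The log2 difference of SAP against Con was 0.38 ± 0.15 (SE, adjusted p = 0.0254), which is 0.17 above the median of all tested genes. It no longer passed when libraries were centred on their median (0.10, adjusted p = 0.587) or rescaled without mitochondrial transcripts (0.17, adjusted p = 0.293), nor without Con 7 (0.32, adjusted p = 0.0610), SAP 22 (0.31, adjusted p = 0.0616) or SAP 25 (0.30, adjusted p = 0.0662). Without SAP 21, 22, 24 and 25 it was 0.10 (adjusted p = 0.576) and without Con 3 and 9 it was 0.34 (adjusted p = 0.0725). Neither AP against Con (0.17, adjusted p = 0.571) nor SAP against AP (0.21, adjusted p = 0.217) passed. SAP against AP did pass under quantile normalization (0.43, adjusted p = 0.00934), without the 50 most abundant genes (0.34, adjusted p = 0.0389) and without SAP 26, 27, 28 and 29 (0.49, adjusted p = 0.00503). Slc38a4 averaged 168 TPM in SAP 21, 22, 24 and 25 and 114 TPM in SAP 26, 27, 28 and 29, numbers to which the labels give no meaning. These sets had stood apart in earlier results of these data, and the difference between them was not tested.

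Ratios within a library do not depend on the scaling. Slc38a3 over Slc38a4 was 3.44 to 5.30 in Con, 2.87 to 3.62 in AP and 0.409 to 1.11 in SAP, so the SAP libraries lay apart from both other groups. Slc38a2 made up 1.29% ± 0.290 of the summed TPM of Slc38a2, Slc38a3 and Slc38a4 in Con, 1.27% ± 0.302 in AP and 16.0% ± 3.91 in SAP (SD, n = 8 each). Slc38a3 held 72.1% ± 3.12 of the summed TPM of all 9 members in Con, 68.5% ± 2.12 in AP and 22.5% ± 3.85 in SAP. The sum of the 9 members was 527 to 781 TPM in Con, 467 to 622 in AP and 316 to 487 in SAP, the SAP range overlapping that of AP but not that of Con.

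**Figure D2:**
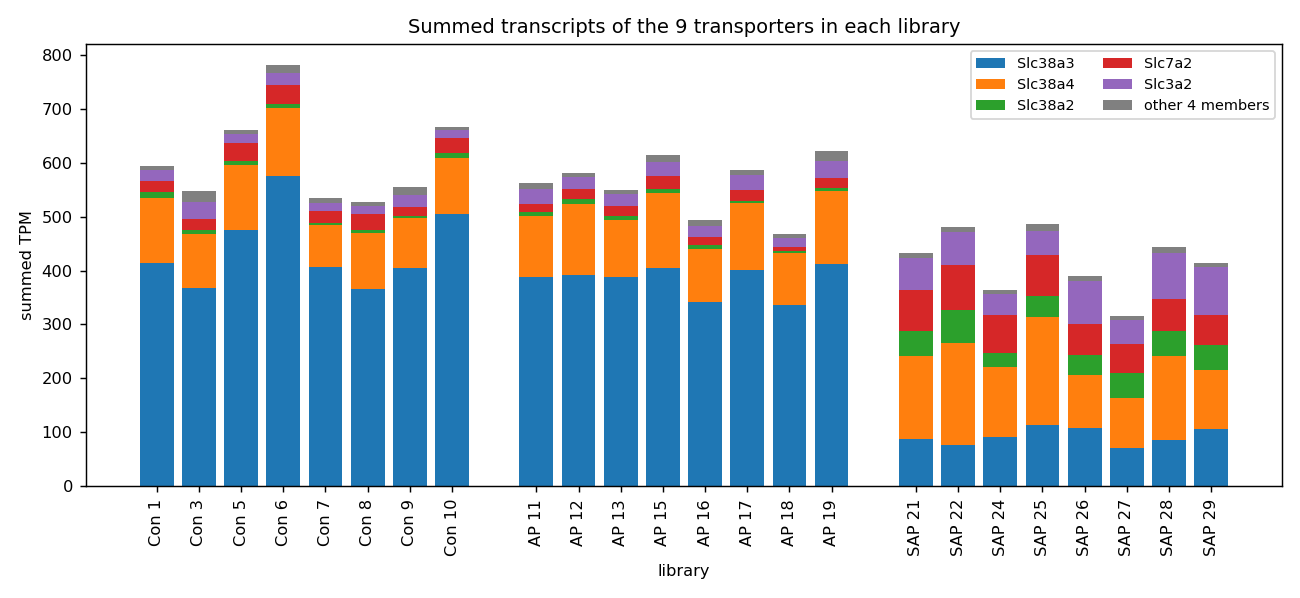
Summed TPM of the 9 members in each of the 24 libraries, stacked by gene with 4 low members drawn together, and with libraries grouped as Con, AP and SAP on the x axis. Slc38a3 fills most of each bar in Con (72.1% on average) and AP (68.5%) and 22.5% in SAP.

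In order of mean level, Con ran Slc38a3, Slc38a4, Slc7a2, Slc3a2, Slc3a1, Slc38a2, Slc43a1, Slc1a4 and Slc7a11. The ranges of Slc7a2 and Slc3a2, of Slc3a2 and Slc3a1, and of Slc3a1 and Slc38a2 overlapped, while the other neighbours in that order were apart. In AP the order was the same but for Slc3a2 and Slc7a2, which changed places, and ranges overlapped from Slc3a2 through Slc38a2. SAP ran Slc38a4, Slc38a3, Slc7a2, Slc3a2, Slc38a2, Slc3a1, Slc43a1, Slc1a4 and Slc7a11. There the first 5 overlapped from each to the next, and Slc38a4 exceeded Slc38a3 in 7 of 8 libraries. Slc3a1 and Slc43a1 overlapped, as did Slc1a4 and Slc7a11.

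Slc7a2, carrier of arginine, lysine and ornithine, ranged from 15.6 to 34.7 TPM in Con (median 25.1), from 7.77 to 24.0 in AP (median 18.0) and from 52.7 to 83.5 in SAP (median 64.9). All 8 SAP libraries were above every Con and every AP library, while AP and Con overlapped. SAP exceeded Con by 1.36 ± 0.18 (log2, SE) and AP by 1.94 ± 0.18, with limma adjusted p of 2.96e-07 and 8.65e-10. AP against Con gave a log2 difference of -0.58 (95% interval -0.95 to -0.20, adjusted p = 0.0631), which missed the threshold. It passed in 7 of 40 alternatives, including quantile normalization (-0.68, adjusted p = 0.0274), rescaling with the top 50 genes left out (-0.73, adjusted p = 0.0351) or without mitochondrial transcripts (-0.68, adjusted p = 0.0377), array weights (-0.52, adjusted p = 0.0391) and without Con 3 (-0.61, adjusted p = 0.0477) or Con 9 (-0.67, adjusted p = 0.0315). SAP 21, 22, 24 and 25 held 71.0 to 83.5 TPM and SAP 26, 27, 28 and 29 held 52.7 to 58.8, without overlap. These sets were formed because they had stood apart in earlier results of these data, so the gap is not independent evidence of a subgroup. The labels give the numbers no meaning, and the share of all genes without overlap between the sets is not given here. Its splice forms, which differ in affinity for arginine, are not told apart in a table by gene.

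Slc7a1, the widely expressed carrier of the same amino acids, was at 0.01 to 0.11 TPM in Con, 0.02 to 0.10 in AP and 0.40 to 1.42 in SAP. It lay below the filter, and limma without a filter gave a log2 difference of 0.66 ± 0.07 for SAP against Con (adjusted p = 4.21e-08). Its level in SAP stayed far below that of Slc7a2.

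Slc3a2, the heavy chain CD98, ranged from 14.3 to 32.7 TPM in Con (median 18.4), from 17.8 to 30.5 in AP (median 24.6) and from 37.8 to 89.3 in SAP (median 60.3). Every SAP library was above every library of the other groups. The log2 difference was 1.60 ± 0.18 (SE) against Con and 1.30 ± 0.18 against AP, with adjusted p of 2.47e-08 and 7.56e-07. AP against Con gave 0.30 (95% interval -0.08 to 0.67, adjusted p = 0.386).

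Its light chains moved unequally. Slc7a5 (LAT1), for large neutral amino acids, ranged from 0.17 to 1.16 TPM in Con, from 0.20 to 0.65 in AP and from 5.61 to 12.2 in SAP, and Slc7a6 (y+LAT2) from 0.01 to 0.14, from 0 to 0.12 and from 1.89 to 8.44. In both, every SAP library was above every other library. Both genes passed the filter only through SAP, so limma without a filter is used for them here. It gave log2 differences of SAP against Con of 2.69 ± 0.14 for Slc7a5 (adjusted p = 1.54e-13) and 2.49 ± 0.18 for Slc7a6 (adjusted p = 6.25e-11). Slc7a8 (LAT2) was lower, at a mean of 1.39 TPM in Con and 0.35 in SAP, with medians of 0.89 and 0.305. Slc7a8 passed the filter through its level in Con and AP, where limma gave a log2 difference from Con of -0.66 (adjusted p = 0.0233). Limma without a filter gave -0.66 against Con (adjusted p = 0.0474). Against AP it gave -0.66, which did not pass (adjusted p = 0.0513). The mean level of Slc7a8, on which the filter rests, was raised by 4.95 TPM in Con 10 and 4.51 in AP 13. Both were far above the other libraries of their groups. Slc7a7 (y+LAT1) had means of 1.64 TPM in Con and 0.931 in SAP, a log2 difference of -0.35 that did not pass (adjusted p = 0.151). Slc7a10 was listed at 0 in all Con and AP libraries and reached 0.3 TPM in SAP 28.

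The 6 light chains of Slc3a2 (Slc7a5, Slc7a6, Slc7a7, Slc7a8, Slc7a10 and Slc7a11) summed to 1.33 to 6.70 TPM in Con, 1.71 to 5.99 in AP and 8.97 to 20.8 in SAP. SAP was apart from both other groups in this sum. Slc3a2 over the summed light chains was 6.80 ± 3.13 in Con, 8.42 ± 3.23 in AP and 4.24 ± 1.30 in SAP (SD, n = 8 each), with overlapping ranges. Levels of mRNA do not give the amount of assembled transporter.

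**Figure D3:**
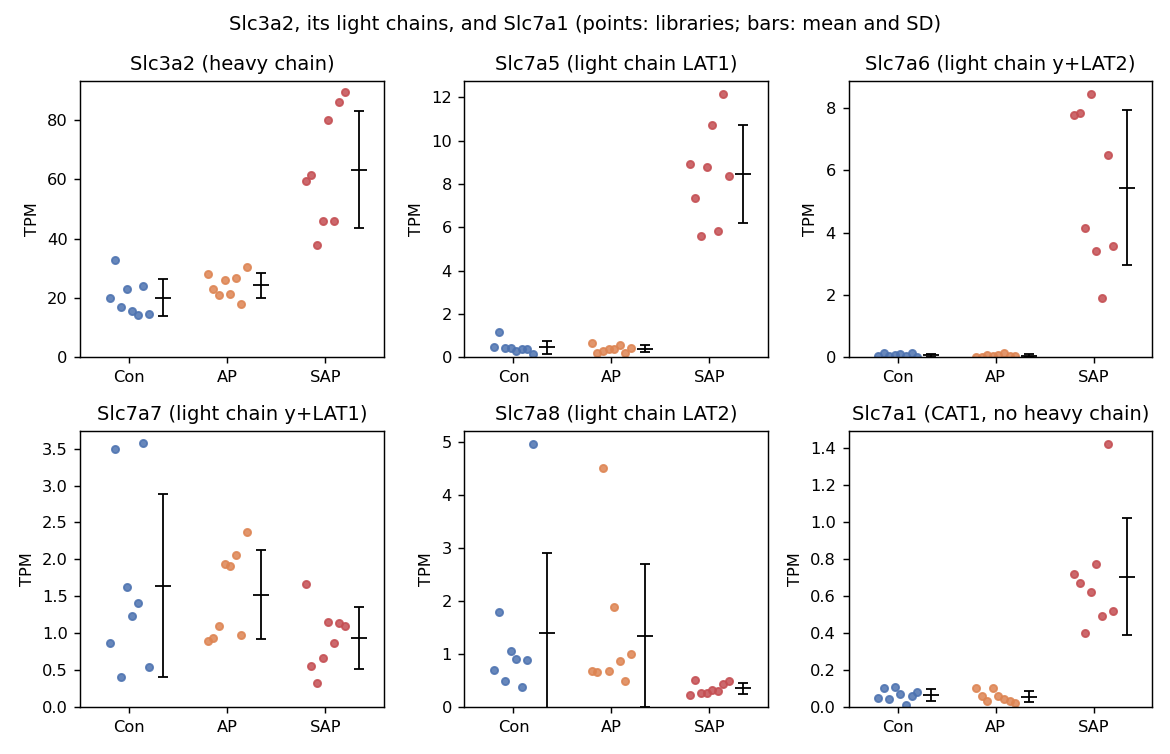
TPM of Slc3a2, 4 of its light chains and Slc7a1, which needs no heavy chain, 1 panel per gene with its own axis in TPM, points for libraries and bars for the mean and SD of 8 libraries (bars stop at 0). Slc7a5 and Slc7a6 were higher in every SAP library than in any Con or AP library. Slc7a8 averaged 1.39 TPM in Con (median 0.89) and 0.35 in SAP (median 0.305).

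Slc7a11, the cystine-glutamate exchanger and itself a light chain of Slc3a2, was barely detected. It was at 0 to 0.13 TPM in Con (0 in Con 5 and Con 9), at 0.01 to 0.11 in AP and at 0.05 to 0.36 in SAP. Only 2 of 8 SAP libraries lay above every Con library. Exact permutation tests of log2(TPM + 1), two-sided over 12870 arrangements and adjusted over 6 tests, gave a difference of 0.12 for SAP against Con (adjusted p = 0.0210) and 0.12 for SAP against AP (adjusted p = 0.0124). AP against Con gave 0.00 (adjusted p = 0.994). Leaving out AP 15, 17, 18 and 19 or AP 11, 12, 13 and 16 raised the unadjusted exact permutation p of SAP against AP to 0.0646 and 0.125. These values are too low for a fold to be read from them.

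Slc1a4 (ASCT1), also below the filter, ranged from 0.35 to 1.29 TPM in Con (median 0.725), from 0.29 to 0.79 in AP (median 0.560) and from 0.21 to 0.35 in SAP (median 0.265). The lowest control, Con 1, equalled the highest SAP library, and 7 of 8 SAP libraries were below every control. By the same exact permutation tests SAP differed from Con by -0.47 and from AP by -0.27 (log2, adjusted p = 0.00186 for both). AP against Con gave -0.19 (adjusted p = 0.137). Its unadjusted exact permutation p was 0.114, and 0.0446 when rescaled without the 50 most abundant genes (-0.36) and 0.0412 without Con 1 (-0.25). Slc1a5 (ASCT2), its close relative, had means of 0.495 TPM in Con and 1.37 in SAP, where SAP 28 alone reached 4.72. Without a filter, limma gave it 0.54 for SAP against Con (adjusted p = 0.0366).

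Slc43a1 (LAT3) ranged from 1.82 to 3.85 TPM in Con (median 2.70), from 1.38 to 3.02 in AP (median 1.85) and from 2.40 to 5.54 in SAP (median 4.25). SAP overlapped both other groups, with 5 of 8 SAP libraries above every Con library and 6 of 8 above every AP library. SAP exceeded AP by 0.74 ± 0.15 (log2, SE, adjusted p = 0.000109) and Con by 0.45 ± 0.15 (adjusted p = 0.00878). The difference from Con did not pass under quantile normalization (0.22, adjusted p = 0.204) or median centring (0.18, adjusted p = 0.294), when rescaled without mitochondrial transcripts (0.30, adjusted p = 0.0732) or without SAP 21, 22, 24 and 25 (0.32, adjusted p = 0.118). Slc43a2 (LAT4), its close relative, had means of 0.298 TPM in Con and 0.628 in SAP, and without a filter its difference of 0.28 did not pass (adjusted p = 0.125).

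Slc3a1, the heavy chain rBAT that is altered in cystinuria, ranged from 2.26 to 15.4 TPM in Con (median 5.84), from 4.23 to 15.8 in AP (median 7.01) and from 3.60 to 7.25 in SAP (median 4.40). The ranges overlapped widely, with 3 of 8 SAP libraries below every AP library. SAP against AP passed at a log2 difference of -0.61 ± 0.26 (SE, adjusted p = 0.0379). This call was lost in 16 of 40 alternatives, among them rescaling with the top 50 genes left out (-0.53, adjusted p = 0.0730) and without AP 19, the highest AP library (-0.47, adjusted p = 0.0967). SAP against Con did not pass (-0.39, adjusted p = 0.178), although it did under quantile normalization (-0.67, adjusted p = 0.00806) and median centring (-0.66, adjusted p = 0.00849), when rescaled without mitochondrial transcripts (-0.57, adjusted p = 0.0479) and without Con 10 (-0.55, adjusted p = 0.0414). Slc3a1 is uncertain in these data: 26.5% of its exonic bases in GENCODE M21 overlap Prepl, a peptidase-like gene on the opposite strand, and no source says that counting used the strand. Prepl had means of 5.26, 5.67 and 3.81 TPM in Con, AP and SAP. The light chain of Slc3a1, Slc7a9, was listed at 0 in all 24 libraries.

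**Figure D4:**
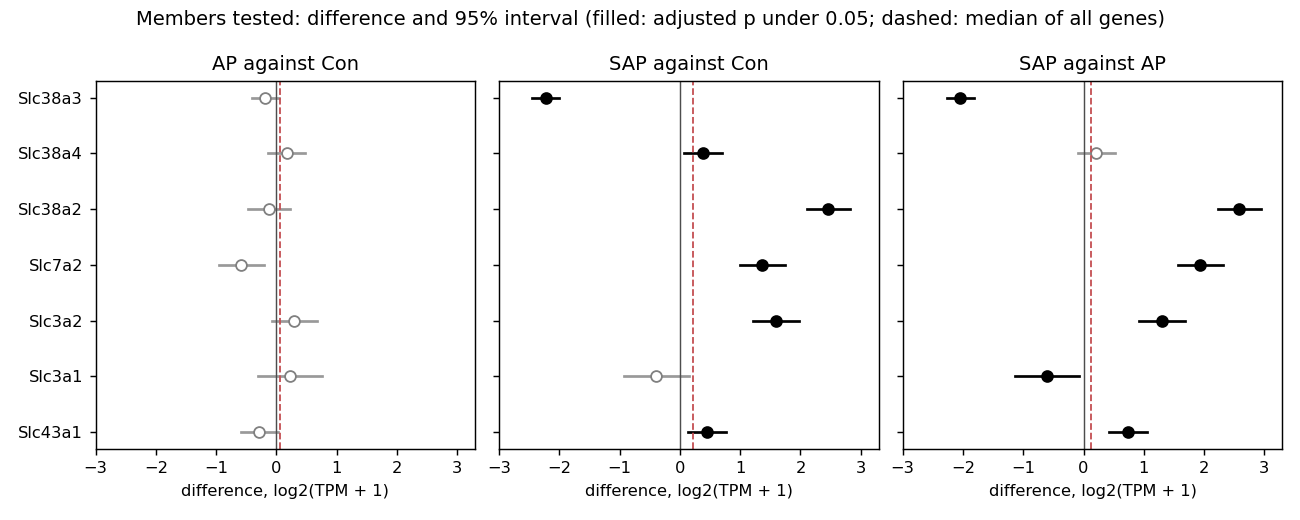
Log2 differences of the 7 members tested, in panels for AP against Con, SAP against Con and SAP against AP, as points (filled where the adjusted p was under 0.05) with 95% intervals from limma on log2(TPM + 1), and a dashed line at the median of all tested genes. Slc38a3 lies far below 0 in both SAP comparisons (-2.23 and -2.05), and Slc38a2, Slc3a2 and Slc7a2 lie above 0 in both.

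Among 37 other amino acid transporters, 16 were tested. Against Con, 6 were higher in SAP, 6 lower and 4 did not pass, where 74.0% of all tested genes were called (44.2% higher, 29.8% lower). The median log2 difference was 0.02, beside 0.21 over all tested genes. Of the 16, 3 averaged under 1 TPM in Con (Slc7a5, Slc7a6 and Slc6a8) and were tested only because of their level in SAP. Slc7a8, among the 6 lower, averaged 0.35 TPM in SAP and passed the filter through Con and AP. Slc6a9, the glycine transporter, rose from a mean of 4.56 TPM in Con to 23.9 in SAP (log2 difference 2.18, adjusted p = 4.85e-09). Slc6a8, the creatine transporter, rose from 0.433 to 3.29 (1.56, adjusted p = 1.40e-10 in limma without a filter). Slc6a9 overlaps genes on the opposite strand, with 27.8% of its exonic bases shared with Ccdc24. Between AP and Con, 1 rose (Slc1a2, a glutamate transporter, 0.62, adjusted p = 0.0185) and 1 fell (Slc38a9, part of lysosomal arginine sensing, -0.68, adjusted p = 0.0159). Both are named after their values were seen. Among all tested genes 4.35% rose and 1.13% fell between AP and Con. Slc38a1, a system A relative, was at 8.46 TPM in Con 1 and at 0.05 to 0.15 in the other controls.

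**Figure D5:**
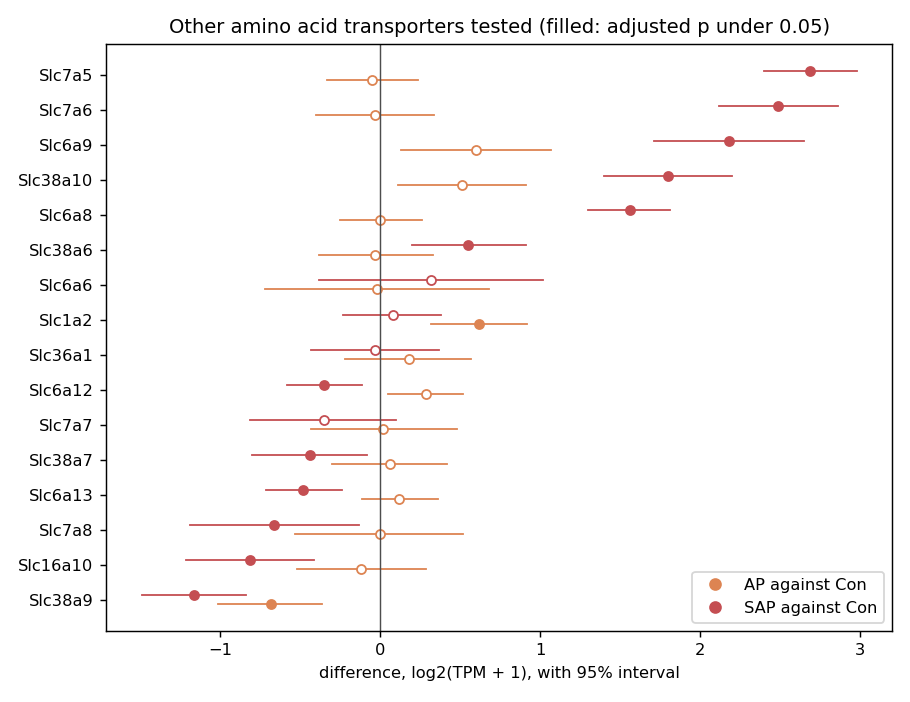
Log2 differences of the other amino acid transporters that were tested, for AP against Con and SAP against Con, with 95% intervals from limma on log2(TPM + 1) and filled points where the adjusted p was under 0.05. In SAP against Con they spread to both sides of 0, with 6 higher, 6 lower and 4 that did not pass. Among all tested genes 44.2% were higher and 29.8% lower.

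Genes of the ATF4 response were given for context, since several members are known targets. Of 27 listed, 24 were tested, and against Con 18 were higher in SAP, 5 lower and 1 did not pass, with a median log2 difference of 1.42. Over all tested genes 44.2% were higher and 29.8% lower, with a median of 0.21. Of the 24, 4 averaged under 1 TPM in Con and AP (Asns, Chac1, Psat1 and Mthfd2) and were tested only because of their level in SAP. Atf4 itself rose from a mean of 44.4 to 205 TPM (2.19, adjusted p = 1.38e-12). Chac1, a glutathione-degrading enzyme, had means of 0.679 TPM in Con, 0.769 in AP and 27.6 in SAP. Nupr1, a stress-induced nuclear protein, rose from 1.08 to 8.96 TPM (2.30, adjusted p = 3.53e-12). Shmt2, of mitochondrial serine and glycine metabolism, fell from 55.4 to 12.2 TPM (-2.11, adjusted p = 1.24e-14). AP against Con passed for 2 of the 24, Atf5 and Eif4ebp1, both higher and both named after their values were seen. Of all tested genes 5.48% passed there.

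Enzymes that use the carried amino acids were also listed. Of 16 tested enzymes of arginine, glutamine and glutathione use, 7 were higher in SAP than in Con, 5 lower and 4 did not pass (median 0.28), shares near those of all tested genes (44.2% higher, 29.8% lower, median 0.21). Sat1, which acetylates polyamines, rose from 25.1 to 164 TPM (2.56, adjusted p = 6.65e-10). Arg2, the mitochondrial arginase, had means of 0.591 TPM in Con, 0.259 in AP and 3.49 in SAP and was tested only because of its level in SAP. Gclm, a subunit of the enzyme that starts glutathione synthesis, fell from 69.7 to 22.4 TPM (-1.59, adjusted p = 1.23e-11), and Gamt, of creatine synthesis, from 282 to 34.5 (-3.33, adjusted p = 9.75e-10). Of 33 genes of the urea cycle and amino acid breakdown, all tested, 10 were higher in SAP, 18 lower and 5 did not pass (median -0.74). Amt, of glycine cleavage, fell from 42.2 to 2.31 TPM (-3.69, adjusted p = 2.86e-17), while Tat, which starts tyrosine breakdown, rose from 172 to 1554 (3.16, adjusted p = 5.55e-13). Sdsl, related to serine dehydratase, rose from 7.92 to 90.3 TPM and Gpt2, an alanine aminotransferase, from 37.1 to 141, with log2 differences of 3.34 and 1.85 and adjusted p of 7.03e-14 and 7.66e-10. In AP against Con 1 gene of each list passed, Srm and Got2, both higher and both named after their values were seen. Of all tested genes 5.48% passed there.

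Markers of some other cells differed between SAP and Con, and not all in one direction. The counts below stand beside 44.2% of all tested genes higher and 29.8% lower in SAP against Con. With so many genes called, counts in such short lists say little about cell types. The summed level of 10 neutrophil markers was 2.56 to 28.1 TPM in Con, 3.42 to 7.53 in AP and 127 to 358 in SAP. Of the 4 that were tested, Ngp and Retnlg averaged under 1 TPM in Con and AP and entered the fit only because of their level in SAP, and S100a8 and S100a9 rose. S100a8 and S100a9 supplied most of the sum. Elane had means of 0.205 TPM in Con and 0.0563 in SAP, was not tested, and was at 0 in 5 of 8 SAP libraries. Of 6 Kupffer cell markers 4 were lower in SAP than in Con and Marco was higher. Stellate cell markers summed to 21.5 to 41.1 TPM in Con and 50.6 to 117 in SAP, mostly Dcn. Of the 4 tested, 2 were higher and 2 lower in SAP, and means went from 3.01 TPM in Con to 0.840 in SAP for Des and from 2.10 to 0.968 for Col1a1. Cholangiocyte markers summed to 12.3 to 25.9 TPM in Con and 23.7 to 80.1 in SAP, mostly Spp1, with Cftr at 0 or nearly so. Of the 2 tested, 1 was higher and 1 did not pass. Means were lower in SAP for Krt19 (2.23 TPM in Con, 1.27 in SAP) and Krt7 (0.299 and 0.181). They were higher for Epcam (0.181 and 1.53) and Sox9 (0.151 and 2.64). Exocrine pancreas markers summed to 17.1 to 41.6 TPM in Con and 7.95 to 14.8 in SAP, nearly all Cela1, with Prss1 listed at 0 in all 24 libraries. Kidney proximal tubule markers stayed at or under 0.73 TPM in all libraries, and adipocyte markers at or under 0.53 outside SAP. In SAP the adipocyte sum had a median of 0.045 TPM, with 21.3 in the highest library. Monocyte or macrophage and sinusoidal endothelium markers had 4 and 5 tested genes, with 0 higher and 1 lower, and 2 higher and 1 lower, in SAP against Con, while no T and NK cell or B cell marker was tested. Among the endothelial markers Lyve1 had means of 0.301 TPM in Con, 0.318 in AP and 11.2 in SAP. It too entered the fit only because of its level in SAP. The part of these cells in the members' differences was not tested.

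The genes whose patterns over the 24 libraries were most like each member were found by the root mean square difference of centred log2(TPM + 1), for the 6 members with a mean of at least 5 TPM. Slc38a3 was closest to Slco2b1 (0.204), Aes (0.210) and Ccdc107 (0.231), where Slc38a3 itself varied by 1.03 about its mean. Slc38a2 was closest to Mapk6 (0.299), Nampt (0.302) and Hnrnpdl (0.305), against its own 1.23. Slc3a2 was closest to Arhgdia (0.192), H6pd (0.194) and Phf3 (0.197), against 0.778. Slc7a2 had more distant neighbours, Rnf103 (0.368), Zfp36 (0.384) and Zfp655 (0.386), against 0.885. Slc38a4 was closest to Arl8b (0.204), Slc27a5 (0.217) and Vwa5a (0.231), against 0.323, and Slc3a1 to Pon3 (0.322), Mocos (0.331) and Psme1 (0.333), against 0.572.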

How the data were processed

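Liver RNA was extracted with Trizol and made into libraries by standard Illumina protocols, per the labels' protocols. The authors deposited a single table of TPM values. No header names the unit, which was inferred from column sums and from how the lowest values fall with transcript length. The submitters' processing notes name edgeR, without a version, and the aligner, build, annotation and strand setting are likewise not stated (not given in the sources used here). TPM keeps no counts, so depth is unknown and no counting interval is given. All 24 libraries were mapped by title to 3 groups of 8, and 0 columns stayed unmapped.

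Log2(TPM + 1) values of the 10555 genes averaging 1 TPM or more (44981 left out) were fitted by group with limma 3.58.1 in R 4.3.3 with an intensity trend (21 residual degrees of freedom), after a test on simulated data. The threshold was 0.05 for the p adjusted by Benjamini-Hochberg over all genes of a comparison. Slc1a4 and Slc7a11, below that mean, were tested by exact permutation, a choice made after the data were seen. The members and the 4 pathway and 12 marker lists were chosen with earlier results of these data known. All members were named, plus the 4 genes of each pathway list with the smallest F-test p, light chain partners and close relatives. The 3 most similar genes were taken per member among 9472 genes, leaving out predicted and clone names. Motifs were searched in RefSeq promoters of GRCm38.p6, and overlapping genes were read from GENCODE M21. Alternatives changed scaling, pseudocount, filter, model and libraries. The sets of libraries left out together had stood apart in earlier results of these data.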

Additional observations from a re-analysis of the deposited data

Results flagged for a closer look

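Dixon's criterion (the gap to the nearest library over the group's range, at its 95% critical value) was applied to 99 groups, 33 genes in 3 groups, and 13 single libraries stood apart from the rest of their group. Chance alone flags about 1 in 20 groups. Slc3a1 was at 15.8 TPM in AP 19, where the other AP libraries reached 9.27. Slc7a11 was at 0.13 TPM in Con 3 and at 0.11 in AP 15, where the others in each group reached 0.05. Slc7a5 at 1.16 TPM and Nupr1 at 2.84 were highest in Con 3 among the controls, the next libraries being at 0.45 and 1.09. Sdsl was at 149.89 TPM in SAP 29, where the others reached 103.72. Slc7a8 was at 4.95 TPM in Con 10 and at 4.51 in AP 13, against at most 1.78 and 1.89 in the others. Slc38a1 was at 8.46 TPM in Con 1, against at most 0.15 in the other controls. SAP 28 stood apart for Slc7a10 (0.3 TPM), Slc7a1 (1.42) and Slc1a5 (4.72), where the other SAP libraries reached 0.1, 0.77 and 1.35. Slc1a5 was at 1.35 TPM in AP 17, against at most 0.77 in the other AP libraries.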

How the results depend on the processing

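No paired analysis was possible because the groups share no replicate numbers. Over 40 alternatives, the differences of Slc38a3, Slc38a2, Slc3a2 and Slc7a2 between SAP and each other group kept their direction and passed in all. Leaving out single libraries, 0 to 1 member passed in AP against Con, 5 to 7 in SAP against Con and 5 to 6 in SAP against AP.

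In AP against Con, members went from 0 to 2 under quantile normalization and to 1 without the 50 most abundant genes, without mitochondrial transcripts, with array weights and without Con 3 and 9. Calls over all genes moved as well, from 459 higher and 119 lower of 10555. Quantile normalization gave 388 and 265, array weights 1252 and 206, and leaving out Con 3 and 9 gave 763 and 148. Without the 50 there were 194 and 215 of 12559, and without mitochondrial transcripts 211 and 173 of 10834. Other transporters went from 2 to 1 (quantile, without the 50 most abundant genes), 4 (array weights, without AP 11, 12, 13 and 16) and 0 (without AP 15, 17, 18 and 19). Over all genes, 975 rose and 264 fell without AP 11, 12, 13 and 16. Only 9 rose and 2 fell without AP 15, 17, 18 and 19. ATF4 genes went from 2 to 1 (quantile, without the 50, without mitochondrial transcripts, no filter, without AP 11, 12, 13 and 16), 4 (array weights) and 0 (without AP 15, 17, 18 and 19). Arginine, glutamine and glutathione enzymes went from 1 to 0 (quantile, without the 50, without mitochondrial transcripts, no filter, without AP 15, 17, 18 and 19), 2 (centring, without SAP 21, 22, 24 and 25, without Con 3 and 9), 3 (without SAP 26, 27, 28 and 29) and 5 (array weights). Catabolic genes went from 1 to 3 (quantile, without Con 3 and 9), 2 (centring, without SAP 21, 22, 24 and 25), 5 (array weights), 4 (without SAP 26, 27, 28 and 29, without AP 11, 12, 13 and 16, only the 2 groups compared) and 0 (without AP 15, 17, 18 and 19). Over all genes, centring gave 747 higher and 259 lower, the 2 groups alone 484 and 145, and no filter 160 and 62 of 26977. Leaving out SAP 21, 22, 24 and 25 gave 640 and 166, and leaving out SAP 26, 27, 28 and 29 gave 664 and 184. In SAP against Con, 19 other transporters passed without a filter, of 33 tested, against 12 of 16. Over all genes, 6707 rose and 4398 fell of 26977 without a filter, against 4661 and 3147 of 10555 with it.

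Signs reversed for Slc38a2 in AP against Con (0.11 without AP 15, 17, 18 and 19), for Slc38a4 in AP against Con (-0.02, quantile) and in SAP against AP (-0.02 centred, -0.08 without SAP 21, 22, 24 and 25), and for Slc7a11 in AP against Con (0.00 and 0.17 with pseudocounts of 0.1 and 0.01, 0.01 without AP 11, 12, 13 and 16 and without Con 3 and 9, and 0.00 to 0.02 without 1 of 6 single libraries). Over all single libraries left out, that Slc7a11 difference ran from -0.02 to 0.02. None of these differences had passed. The cause was not tested. Centring moved the all-gene median of SAP against Con from 0.21 to -0.06 and the calls from 4661 higher and 3147 lower to 3888 and 4300; in AP against Con, 459 and 119 became 194 and 215 without the 50 most abundant genes. List counts were not refitted without single libraries, and the permutation tests were not run under quantile normalization, centring, other filters or limma settings. With depth unknown, differences below about 1 TPM are the least certain.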
